A study of Labroides dimidiatus with 18 samples.

Results

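Ldim_g12384 is a gene model of the bluestreak cleaner wrasse (Labroides dimidiatus) whose level in a forebrain slice varied widely among fish from the same reef site. The subject here is the 50 gene models whose levels, taken relative to their site means, ranked the 17 fish most like Ldim_g12384 did. For every model the site means of log2(CPM + 50) were subtracted, where CPM is the count per 1000000 gene counts of the library and 50 is the added pseudocount, and Spearman's rho to Ldim_g12384 was taken over 17 fish. Candidates were the 1330 models, of 28134 in all, with a mean of 100 CPM or more that were not among the 100 most abundant. Ldim_g12384 itself ranked 27 in abundance and is not counted among the 50.

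All fish were females, each library came from 1 fish, and the tissue was the second slice, 300 µm thick, from the front of the brain, with pallial areas Dl and Dm and parts of the septal and striatal territories. The labels class Clam Gardens (3 fish) and The Crest (5 fish) as high density, and Osprey (7 fish) and Watson's Bay (3 fish) as low density. They give no strain, age or treatment beyond site and density, and the meaning of density is not spelled out in them. Watson's Bay fish 19 was left out by the rule, which leaves 17 fish and 2 at Watson's Bay.

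Cleaner wrasse live by removing parasites from other fish at fixed reef stations. Dl and Dm of the teleost pallium are regarded as counterparts of the mammalian hippocampus and basolateral amygdala, regions known for spatial and emotional learning. Co-variation among animals of 1 group is a standard way of listing transcripts whose levels go together in a tissue. In bulk RNA from a slice, fewer cells of a type and less RNA per cell cannot be told apart. The files do not pair the identifiers with gene names, so no function is given for any model and the labelled tissue could not be checked against marker genes.

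Libraries were shallow, with 26092 to 88153 counts in gene models per fish (median 42702, n = 17). At these totals 3 counts corresponded to between 34.0 and 115 CPM. Between 5.82% and 7.62% of records fell in gene models and between 19.7% and 24.5% did not align. Watson's Bay fish 19 had 3868 counts, of which 28 were in the 50 members, and 35 members were at 0 in it.

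The members were chosen by their rho, so these values are descriptions only. They ran from 0.79 to 0.44, with a median of 0.54. The 50th member, Ldim_g28020, and the first model outside, Ldim_g4074, were tied at a rho of 0.44, and the tie was settled by identifier. The models on either side of this pair had a rho of 0.45 and 0.44, so no gap sets the members off from the rest. Over all 1330 candidates the median rho was -0.06 with an SD of 0.27. A rho above 0.7 was reached by 3 models and one below -0.7 by 7, and 32 lay above 0.5 against 50 below -0.5. At each of these limits the positive end of the distribution held fewer models than the negative end. Ldim_g28020, just inside the list, had 0 to 11 counts per fish, and Ldim_g4074, just outside it, had 2 to 14.

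**Figure D1:**
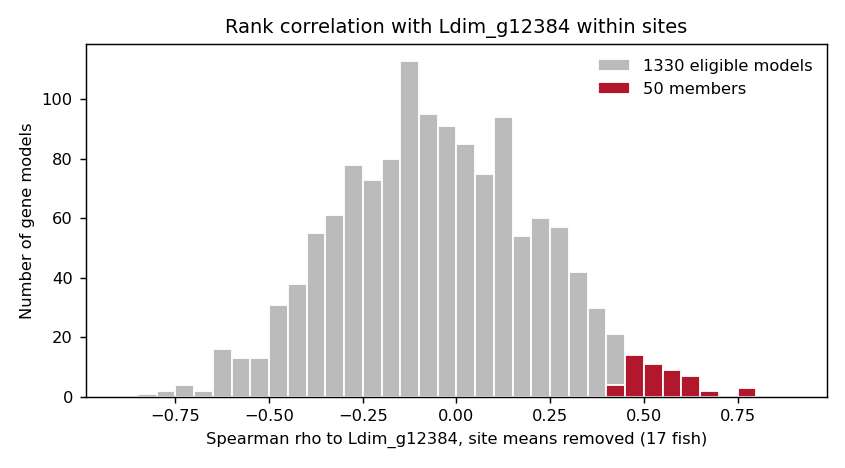
The horizontal axis is Spearman's rho to Ldim_g12384 after site means were removed (17 fish) and the vertical axis the number of gene models, with the 1330 candidates in grey and the 50 members in red. The members, from 0.44 to 0.79, form the upper end of a single distribution centred near 0.

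Ldim_g14505 had the highest rho, 0.79. Its levels at Clam Gardens were 53.9, 192 and 117 CPM in fish 8, 9 and 10. At The Crest they were 193, 196, 126, 108 and 215 CPM in fish 11 to 15. At Osprey the lowest, median and highest of 7 fish were 30.3, 183 and 361 CPM. Fish 17 of Watson's Bay had 347 CPM and fish 20 had 155 CPM. In each site the fish with the highest Ldim_g12384 was also the highest for Ldim_g14505, and the 4 sites overlapped throughout. These CPM values stand for 1 to 21 counts.

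The next members by rho were as low in counts. Ldim_g12682 (rho 0.76) had 1 to 9 counts per fish, and was highest in The Crest fish 15 at 246 CPM and lowest in Watson's Bay fish 20 at 19.4 CPM. Ldim_g14590 (rho 0.76) had 3 to 22 counts, with 461 CPM in The Crest fish 15 and 81.5 CPM in Osprey fish 1. Ldim_g18279 (rho 0.68) had 3 to 20 counts and stood at 399 CPM in The Crest fish 15, against 215 CPM in the next fish of that site. Ldim_g4046 (rho 0.67) had 2 to 16 counts and also reached 399 CPM in The Crest fish 15, but only 76.7 CPM in Clam Gardens fish 9, the fish with the most Ldim_g12384 at its site. That value stood for 2 counts, against 3 in Clam Gardens fish 8 and 5 in fish 10, so this departure from the common ranking rests on few counts.

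Most members were low in abundance. Their mean levels ran from 102 to 1192 CPM with a median of 170 CPM, against a median of 200 CPM over the candidates, and 32 of 50 (64%) lay under 200 CPM against 50% of candidates. A member's mean count over the 17 fish had a median of 7.74, and 16 members (32%) averaged 10 counts or more, against 48.9% of candidates. The 2 most abundant members were Ldim_g6408 at 1192 CPM and Ldim_g22112 at 1008 CPM.

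The same fish were high or low across the list. Members above their site mean numbered 44 of 50 in Clam Gardens fish 9, 39 in The Crest fish 15 and 42 in Osprey fish 5, each the fish with the most Ldim_g12384 at its site, and 33 in Watson's Bay fish 17. They numbered 5 in Clam Gardens fish 8, 8 in Osprey fish 3 and 15 in The Crest fish 14, each the fish with the least Ldim_g12384 at its site. Over all candidates these 7 fish had 43.0% to 62.3% of models above the site mean. This ordering follows from the way the members were chosen. It was not exact among the other fish. The Crest fish 11, ranked 3 of 5 for Ldim_g12384, had 13 members above the site mean, fewer than fish 14. Clam Gardens fish 9 was the highest of its site for 33 members (66%, against 32.3% of candidates), and The Crest fish 15 for 23 (46%, against 21.2%).

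**Figure D2:**
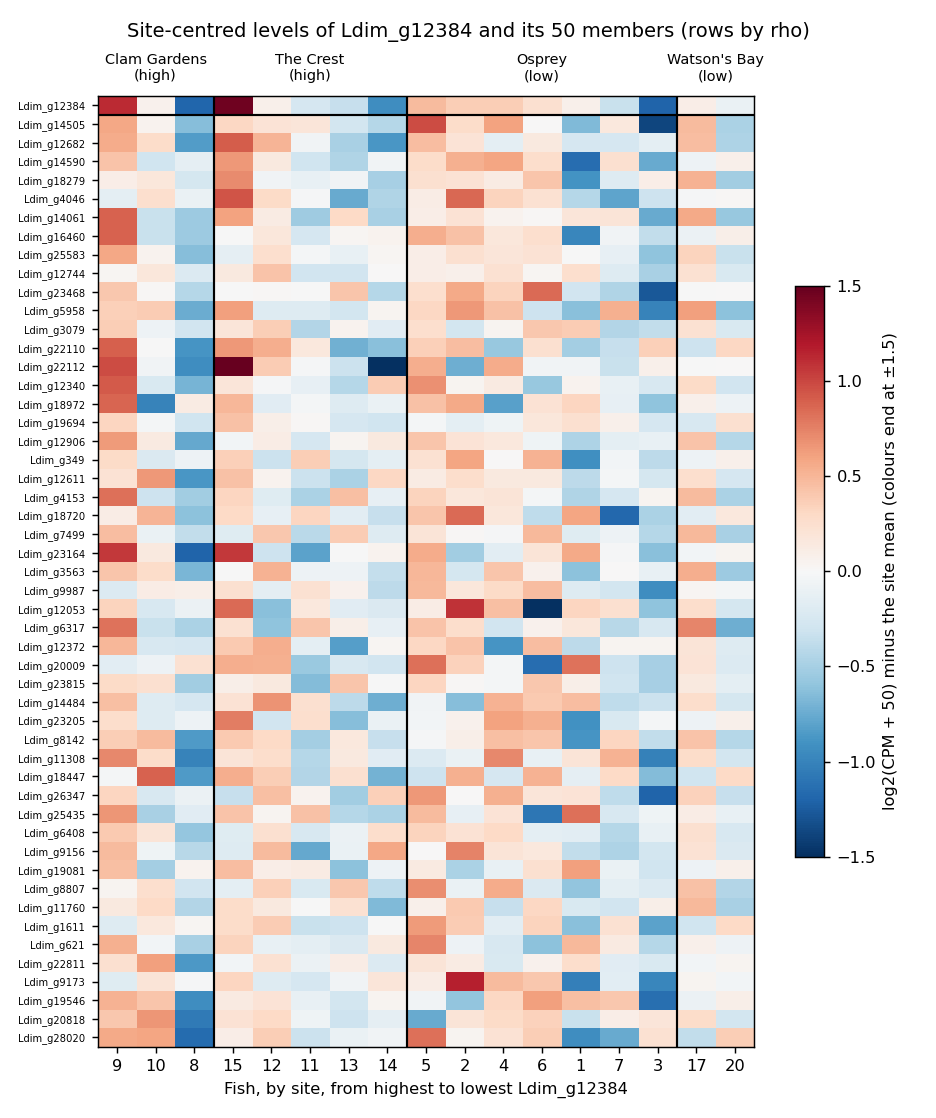
Rows are Ldim_g12384 (top) and the 50 members by falling rho, columns are the 17 fish by site from the highest to the lowest Ldim_g12384, and colour is log2(CPM + 50) minus the site mean. The left column of each site is mostly red (44 of 50 members above the site mean in Clam Gardens fish 9). The right column is mostly blue (5 of 50 in Clam Gardens fish 8). The columns between do not fall steadily, with 13 of 50 in The Crest fish 11 against 15 in fish 14.

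Taken as a sum, the 50 members held 0.838%, 1.80% and 1.30% of gene counts in Clam Gardens fish 8, 9 and 10. At The Crest they held 1.24%, 1.62%, 1.23%, 1.14% and 1.92% in fish 11 to 15. At Osprey the lowest, median and highest shares were 0.846%, 1.27% and 1.49%. Fish 17 of Watson's Bay had 1.54% and fish 20 had 1.14%. The exact Clopper-Pearson 95% intervals were 1.64% to 1.97% in fish 9 and 1.78% to 2.08% in fish 15, which do not reach the 0.748% to 0.936% of fish 8. These intervals cover counting error at most and take every count as an independent molecule. Copies made in PCR are not independent, so the intervals can be too narrow even for counting error. The rule chose models that ranked fish 9 and 15 high and fish 8 low within their sites. The gap between the intervals is therefore a description and no test of a difference.

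Ldim_g12384 itself stood at 2667, 13414 and 6393 CPM in Clam Gardens fish 8, 9 and 10, and at 3902, 4911, 3654, 2423 and 12904 CPM in The Crest fish 11 to 15. At Osprey its lowest, median and highest levels were 576, 1653 and 1954 CPM. Fish 17 of Watson's Bay had 2530 CPM and fish 20 had 2208 CPM. Between fish 14 and fish 15, the extremes of The Crest, Ldim_g12384 went from 2423 to 12904 CPM and the members' summed share from 1.14% to 1.92%. At Watson's Bay the members' share differed more in proportion than Ldim_g12384 did.

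At both high-density sites the fish with the highest levels had the shallowest library. Clam Gardens fish 9 (26092 counts) and The Crest fish 15 (32548 counts) were the shallowest libraries of their sites and the highest in Ldim_g12384 and in the members' share. At The Crest the next shallowest library, fish 12 (51113 counts), ranked 2 of 5 in both. The deeper fish 11, 13 and 14 (88153, 79083 and 82960 counts) ranked 3, 4 and 5 in both. The other fish did not follow depth at Clam Gardens, where fish 10 (42702 counts) was deeper than fish 8 (37116 counts) and higher in both. At Osprey the fish highest in both, fish 5 (33260 counts), ranked 5 of 7 in depth, and at Watson's Bay fish 17 (60465 counts) was the deeper of the pair. Fish 15 also had the highest share of records in gene models (7.62%) and of unaligned records (24.5%) among the 17. The part of depth and library composition in the shared ranking was not tested.

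**Figure D3:**
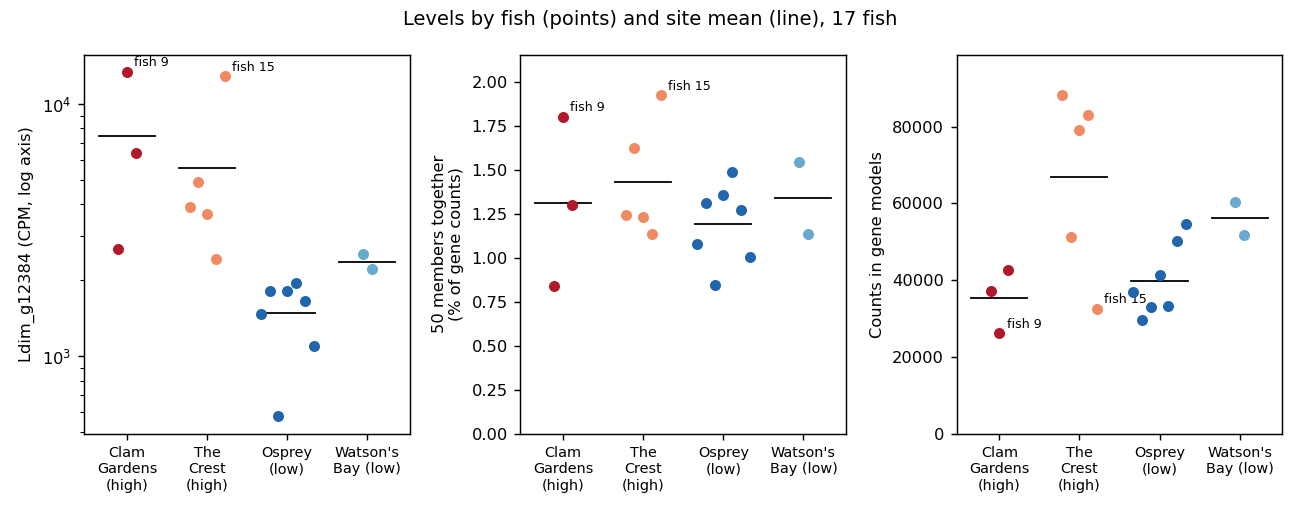
Points are fish and lines are site means, by site on the horizontal axis, for Ldim_g12384 in CPM (left, log axis), the summed share of gene counts in the 50 members (middle) and the counts in gene models (right). Clam Gardens fish 9 and The Crest fish 15 are the highest of their sites in the left and middle panels (1.80% and 1.92% for the members) and the lowest on the right (26092 and 32548 counts).

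The spread of most members within sites was close to that of counting error. The chi-square of a model's counts within sites, per degree of freedom, is near 1 when fish differ by counting error only. It was 69.9 for Ldim_g12384, and had a median of 1.31 over the members against 1.46 over the candidates. It exceeded 2 in 8 members (16%), against 28.0% of candidates. At the same relative spread among fish this measure is larger for models with more counts. Members had fewer counts than candidates (32% against 48.9% averaged 10 or more), so these values do not show that members varied less. The member with the widest spread was Ldim_g22112, at 23.1, and the next was Ldim_g14484, at 5.29 (named after its values were seen).

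The members' rho to Ldim_g12384 was set by the rule, and so, in part, was their likeness to one another. Among their 1225 pairs the median rho within sites was 0.33, with the middle 50% between 0.17 and 0.48, and 92 pairs (7.51%) were negative. Among all 883785 pairs of candidates the median was 0.01. The 50 models with the lowest rho to Ldim_g12384 had a median of 0.38 among themselves, so models picked for likeness or for unlikeness to Ldim_g12384 both resemble one another to a similar degree. The closest pair of members was Ldim_g6408 and Ldim_g12906 (rho 0.90), which was named after its value was seen.

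Ldim_g22112 and Ldim_g22110 are the only 2 members whose identifier numbers lie within 2 of each other. The models numbered between and beside them, Ldim_g22111 and Ldim_g22109, were among the 100 most abundant and so could not be members. They were the 2 models closest to Ldim_g12384 in the whole table above 100 CPM, with a rho of 0.91 and 0.86 against 0.79 for the first member. The third among the 100 most abundant reached 0.51. These 4 were singled out after their values were seen. The files give no positions, so whether the 4 lie side by side in the genome was not examined.

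The 4 differed in how near they stayed to Ldim_g12384. Ldim_g22111 had 134, 412 and 331 counts in Clam Gardens fish 8, 9 and 10, where Ldim_g12384 had 99, 350 and 273. At The Crest it had 407, 270, 359, 182 and 508 counts in fish 11 to 15, where Ldim_g12384 had 344, 251, 289, 201 and 420. At Osprey it had between 32 and 118 counts and Ldim_g12384 between 19 and 83, while fish 17 of Watson's Bay had 244 against 153 and fish 20 had 201 against 114.

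The 2 members departed from it in single fish. Ldim_g22112 had 5 counts in Osprey fish 2 and 11 in Osprey fish 3, where Ldim_g12384 had 54 and 19. Ldim_g22110 had 1 count in Osprey fish 4 and 3 in Osprey fish 3 (24.2 and 91.0 CPM), where Ldim_g12384 had 75 and 19. At The Crest it had 16, 13, 6, 7 and 9 counts in fish 11 to 15. These stand for 182, 254, 75.9, 84.4 and 277 CPM, so fish 15, the highest there for Ldim_g12384, was also its highest in CPM.

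In proportion, Ldim_g22109 had 131 to 212 counts and Ldim_g22111 had 90.5 to 176 counts for every 100 of Ldim_g12384 over the 17 fish. For Ldim_g22112 the range was 9.26 to 57.9 and for Ldim_g22110 it was 1.33 to 15.8, both from few counts in the Osprey fish. The numbers just outside the run were nearly silent, with 10 counts in all 17 fish together for Ldim_g22106, 0 for Ldim_g22107 and Ldim_g22108, and 7 for Ldim_g22113. Within sites Ldim_g22109 and Ldim_g22111 had a rho of 0.98 to each other, and Ldim_g22112 had 0.72 and 0.74 to them. If any of these models are near-identical copies, reads could have been split among them or left out for low mapping quality. Their separate levels are therefore uncertain, and this was not tested.

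**Figure D4:**
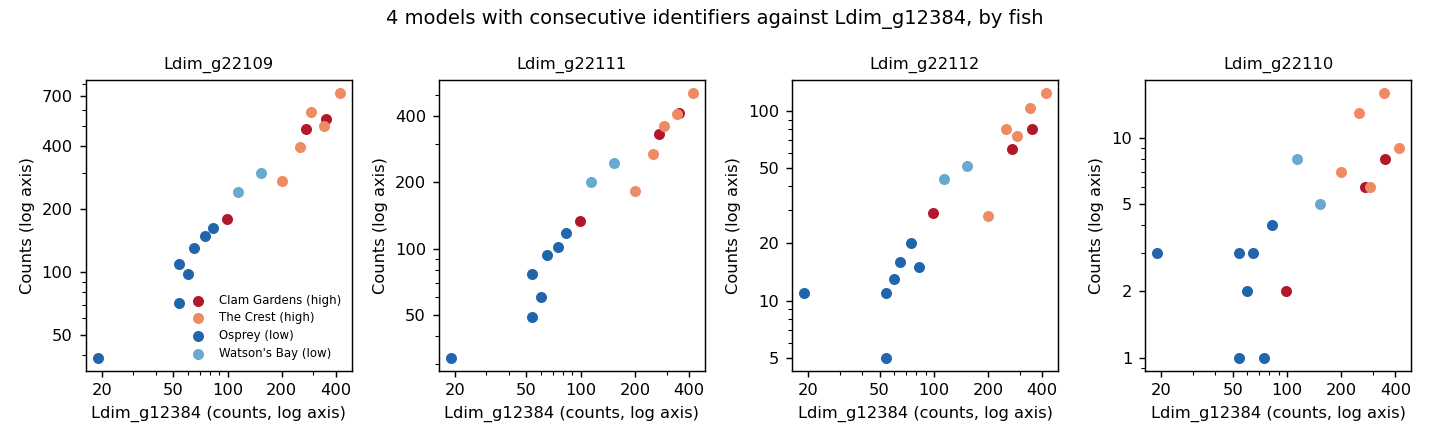
Each panel plots the counts of 1 of 4 consecutively numbered models against the counts of Ldim_g12384, on log axes, with 1 point per fish coloured by site (17 fish). Ldim_g22109 and Ldim_g22111 follow Ldim_g12384 closely over its range of 19 to 420 counts, and the 2 members, Ldim_g22112 and Ldim_g22110, scatter more at lower counts, Ldim_g22110 with 1 to 16 counts per fish.

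Whether the members also differ between high-density and low-density sites was asked next. The rule had removed the site means, but it sought models that follow Ldim_g12384, which was chosen for its difference between densities. A member's difference between densities is thus not independent of that choice. Of the 50 members, all tested, 1 was higher and 0 lower in high-density fish by edgeR's quasi-likelihood test with Benjamini-Hochberg adjustment over 1430 models. That is 2.00% of members, beside a background of 2.03% of all models tested (29 of 1430, with 26 higher, or 1.82%). The member was Ldim_g22112. Unadjusted p-values under 0.05 were found for 4 members (8%) and for 10.7% of all models. The median log2 difference, high minus low, was -0.02 over the members and -0.03 over all models, and 24 members were on the higher side and 26 on the lower. Among the 1330 candidates alone 24 (1.80%) passed. The members as a list lay near these shares. They had fewer counts than the candidates (32% against 48.9% averaged 10 or more), which limits what the test could find among them. Each density holds 2 sites, and the test takes its error from the spread among fish, not among sites. Its p-values therefore cannot tell density from site. Ldim_g12384 itself was chosen for its difference between densities, and its means were 6284 ± 4426 CPM over the 8 fish of high-density sites and 1680 ± 583 CPM over the 9 of low-density sites (SD).

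Ldim_g22112 had 781, 3066 and 1475 CPM in Clam Gardens fish 8, 9 and 10, and 1168, 1565, 936, 338 and 3810 CPM in The Crest fish 11 to 15. At Osprey the lowest, median and highest levels were 168, 299 and 483 CPM. Fish 17 of Watson's Bay had 843 CPM and fish 20 had 852 CPM. The range of the low-density fish was exceeded by 6 of the 8 high-density fish, while The Crest fish 14 lay among the Osprey fish. The mean of the 8 high-density fish was 1642 ± 1191 CPM and that of the 9 others 444 ± 250 CPM (SD), a fitted difference of 3.61-fold (log2 1.85, SE 0.38, edgeR adjusted p = 0.00334). Ldim_g22112 was no longer past the threshold with robust dispersion (SE 0.47, edgeR adjusted p = 0.0765). Over the other settings its adjusted p ran from 2.15e-18 without a low-count filter to 0.0360 without fish 9 and 15, where the log2 difference was 1.25. The fit without a low-count filter took in 15236 models in place of 1430. Its error estimate was not checked, so 2.15e-18 is not read as stronger evidence than 0.00334. With equal weight for the 4 sites Ldim_g22112 was again the member called, beside 1.26% of all models (log2 1.66, SE 0.39, edgeR adjusted p = 0.0324). That call was lost without Clam Gardens fish 9, without Osprey fish 1, 2, 6 or 7, without Watson's Bay fish 17 or 20, and without fish 9 and 15 together, and over single fish left out the adjusted p ran from 0.0013 to 0.230.

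Ldim_g22110, its neighbour by number, averaged 172 ± 98.4 CPM in the 8 high-density fish and 76.4 ± 41.8 CPM in the 9 others. The log2 difference of 1.08 (SE 0.39) did not pass (edgeR adjusted p = 0.261). Ldim_g22110 met the limit of a mean of 100 CPM only through the high-density fish. Its difference is thus tilted upward by the filter and is a description only. Ldim_g23468, named after its values were seen, did not pass either (log2 0.85, SE 0.31, edgeR adjusted p = 0.261). It averaged 259 ± 101 CPM over the 8 high-density fish and 152 ± 82.2 CPM over the 9 others. The higher mean came mainly from The Crest, with 315 CPM. Osprey (163 CPM) and Clam Gardens (167 CPM) were nearly equal, although their densities differ (log2 0.04, SE 0.48, Clam Gardens minus Osprey). Watson's Bay had 116 CPM. The 5 members with the highest rho had log2 differences from -0.40 (Ldim_g14505, SE 0.33) to 0.01 (Ldim_g4046, SE 0.34). Ldim_g6408, the most abundant member, stood at 1173 ± 287 CPM in high-density fish against 1208 ± 246 CPM in the others (log2 0.0044, SE 0.16).

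**Figure D5:**
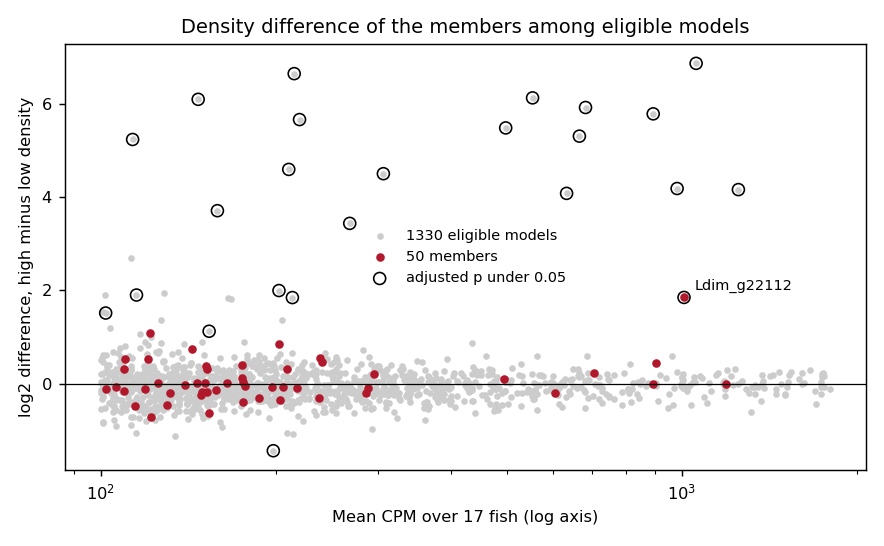
The vertical axis is the fitted log2 difference between high-density and low-density fish and the horizontal axis the mean CPM over 17 fish (log axis), with the 1330 candidates in grey, the 50 members in red and circles around the 24 candidates with an adjusted p under 0.05. Of the members only Ldim_g22112, at a log2 difference of 1.85, is circled, and the others lie within the grey cloud around 0.

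The summed share of the members had a mean of 1.39% ± 0.365 over the 8 high-density fish and of 1.23% ± 0.228 over the 9 others (SD), and the ranges overlapped. Clam Gardens averaged 1.31% ± 0.482 and The Crest 1.43% ± 0.332 (SD, n = 3 and 5). Osprey averaged 1.19% ± 0.224 and Watson's Bay 1.34% ± 0.287 (SD, n = 7 and 2). The ranges of all 4 sites overlapped. Without Ldim_g22112 the density means were 1.22% ± 0.264 and 1.18% ± 0.219. Without Clam Gardens fish 9 and The Crest fish 15 the difference between densities was 0.00239 in place of 0.161 percentage points. No p is given for these sums, because the members were chosen with results of these fish known.

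By site, the means of Clam Gardens and The Crest both exceeded those of Osprey and Watson's Bay for 10 members (20%), against 11.9% of candidates, and both fell short of them for 8 (16%), against 20.3%. The remaining 32 did not order the sites by density. Clam Gardens had the lowest mean of the 4 sites for 20 members (40%), against 34.3% of candidates.

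Over the 4 sites 1 member differed, again Ldim_g22112 (edgeR adjusted p = 0.00795), beside a background of 2.17% of models. The Crest against Osprey called 1 member among 2.87% of models, with Ldim_g22112 higher at The Crest (log2 2.26, SE 0.43, edgeR adjusted p = 0.00224). Clam Gardens against Osprey called 1 among 0.839% of models, Ldim_g22112 being higher at Clam Gardens (log2 2.46, SE 0.49, edgeR adjusted p = 0.00833), and without Clam Gardens fish 9 no member passed. These comparisons share the Osprey fish, and the calls of Ldim_g22112 are again not separate from the choice of Ldim_g12384. Leaving out Osprey fish 6 brought the members called between The Crest and Osprey to 2.

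Between sites of the same density no member passed. The Crest against Clam Gardens called 0 of 1430 models (0%), with 3 members and 116 models at an unadjusted p under 0.05 in edgeR. Osprey against Watson's Bay also called 0 of 1430 (0%), with 2 members and 100 models at an unadjusted p under 0.05. In that comparison Ldim_g22112 averaged 329 ± 117 CPM at Osprey and 848 ± 6.20 CPM at Watson's Bay (SD, n = 7 and 2; log2 -1.39, SE 0.56, edgeR adjusted p = 0.602).

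Counts on tilapia transcripts, a second table from the same fish with identifiers of Nile tilapia (Oreochromis niloticus), were ranked against Ldim_g12384 in the same way. Unlike for the members, the 100 most abundant were kept in. Of 1378 transcripts with a mean of 100 CPM or more, 71 had a rho at or above that of the 50th member, 8 lay above 0.7 and 6 below -0.7, around a median of -0.01 and an SD of 0.27. The lowest rho was -0.91. The closest, ENSONIT00000000590.1 (rho 0.77, mean 962 CPM), had 814, 1112 and 709 CPM in Clam Gardens fish 8, 9 and 10 and 1351 CPM in The Crest fish 15, its highest fish. The second, ENSONIT00000017938.1 (rho 0.74, mean 167 CPM), had 2 to 11 counts per fish and was highest in Clam Gardens fish 9, at 342 CPM. The transcripts were not matched to Labroides models, and both tables come from the same libraries, so this is not an independent reading of the fish.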

How the data were processed

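Forebrain slices of 18 fish were measured by 3' tag sequencing, in which reads come from the 3' end of polyadenylated transcripts, so a longer transcript is not counted more often. The authors deposited raw counts per gene model (28134, plus 5 summary entries that name no gene) and per tilapia transcript (26788). The submitters' processing notes name Cutadapt 2.8, BWA and SAMtools. Not given in the sources used here are the counter, its strand setting and the genome build. The 5 summary entries stayed out of library totals: over 17 fish they held on average 68.4% of records outside gene models, 21.7% not aligned, 3.49% of low mapping quality and 0.0102% ambiguous, and the entry for non-unique alignments was 0.

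Differences were tested in R 4.3.3 with edgeR 4.0.16 (TMM scaling, quasi-likelihood F test, Benjamini-Hochberg threshold 0.05) over all 1430 models with a mean of 100 CPM or more, so that each member was tested. SEs were taken from the log2 fold change and the root of F. Density was the single term, and site contrasts came from a fit with 4 sites. DESeq2 1.42.0 was an alternative. Rank correlations used Python 3.11.15 with pandas 2.3.3, and intervals scipy 1.17.1. The fits were also run on simulated counts, with the same spread for every model and no differences among sites of the same density. Those settings differ from these data, so that run does not check the p-values given here. All 153 pairs of libraries differed beyond counting error. Each density holds 2 sites, so density and site cannot be told apart. Libraries are from separate fish per the labels, and p-values reflect the variation among them.

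The members and lists were chosen with earlier results of these data known. The text names Ldim_g12384, the 5 members with the highest rho, those ranked 50 and 51, the 2 most abundant and, of members called between densities with both sites on 1 side, up to 2 that rose and 2 that fell. Marker lists could not be matched to identifiers and were not used.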

Additional observations from a re-analysis of the deposited data

Results flagged for a closer look

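Whether a single fish stood apart was judged from its distance to the nearest other fish relative to the range of the group, in 48 combinations of 12 measures and 4 groups (The Crest, Osprey and each density), of which chance would single out about 5%. A fish stood apart in 4. The Crest fish 15 had 12904 CPM of Ldim_g12384 against 4911 CPM in the next fish of that site. It also had 399 CPM of the member Ldim_g18279 against 215 CPM in the next, both within The Crest and among all high-density fish, from 13 counts. Ldim_g18279 was chosen for following Ldim_g12384, and both of its flags rest on the same value. They are thus not independent of the rule or of each other, and the 5% is no measure for them. The Crest fish 12 had 215 CPM of Ldim_g4074, the first model outside the list, against 92.2 CPM in the next fish of the site, from 11 counts.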

How the results depend on the processing

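The list of members depended on the choices behind it. Of the 50, the number again among the 50 highest rho was 46 with a pseudocount of 10 or 200, 42 with TMM-scaled CPM, 44 with the 100 most abundant models kept in and 34 with Pearson's r. It was 18 with a mean of 200 CPM or more and 16 with a mean count of 10 or more (chosen after seeing the data), in both cases every member that such a filter leaves. Without The Crest fish 15 and Clam Gardens fish 9 together it was 16, and leaving out single fish gave 26 to 45, lowest without The Crest fish 15 (26), Clam Gardens fish 9 (28) and 8 (31), The Crest fish 14 (33) and Osprey fish 3 (33). In all 17 such lists 12 members remained. With members fixed, their median rho was largely set by the choice (0.50 to 0.56 without single fish, 0.52 without the pair).

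The count of members past the threshold between densities was 1 under each alternative except robust dispersion (0, with 4 at unadjusted p under 0.05), and 1 without any single fish. Among all models the 29 calls became 7 with filterByExpr, which kept 12 members, 86 without a low-count filter, 16 with robust dispersion, 18 with equal weight for the 4 sites, and 25 to 34 without single fish. With filterByExpr the calls were 14 in place of 31 over the 4 sites, 2 in place of 0 for The Crest against Clam Gardens, and 15 in place of 41 for The Crest against Osprey. Without single fish they were 23 to 38 over the 4 sites, 0 to 3 for The Crest against Clam Gardens (3 without The Crest fish 14), 0 to 1 for Osprey against Watson's Bay (1 without Osprey fish 7), 31 to 45 for The Crest against Osprey and 6 to 16 for Clam Gardens against Osprey. For Clam Gardens against Osprey the count was 12 with every fish, 6 without Clam Gardens fish 8 or 9 or Osprey fish 2, and 7 without Osprey fish 1 or 3. With equal weight for the 4 sites the 18 calls became 0 to 21: 0 without Watson's Bay fish 17, 4 without Watson's Bay fish 20, 5 without Clam Gardens fish 8 or Osprey fish 2, 9 without Osprey fish 7 and 10 without Osprey fish 6. Members called without single fish were 1 over the 4 sites, 0 for both comparisons within a density, 1 to 2 for The Crest against Osprey and 0 to 1 for Clam Gardens against Osprey. The cause of these shifts was not tested. Leaving out Watson's Bay fish 17 or 20 leaves 1 fish there, which is then assumed to vary like the others.

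The median log2 difference of the members between densities was -0.09 to 0.06 without single fish, and the difference of their summed shares 0.0843 to 0.239 percentage points. Named members without a called difference changed sign in places. Ldim_g12682 was 0.26 with equal site weights and -0.32 to 0.076 without single fish. Ldim_g4046 was -0.031 without TMM, -0.16 with equal weights, -0.16 without the pair and -0.24 to 0.17 without single fish. Ldim_g6408 was -0.033 without TMM, -0.12 with equal weights and -0.054 to 0.094 without single fish. Without single fish Ldim_g14590 was -0.20 to 0.0047, Ldim_g18279 -0.23 to 0.099 and Ldim_g4074 -0.38 to 0.042. Ldim_g22112 was 1.54 to 2.07. No paired analysis was possible because the labels give the fish no shared replicate numbers. Depth limits statements on the 32 of 50 members under 200 CPM most, since 3 counts correspond to 34.0 to 115 CPM.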
